A study of Mus musculus with 18 samples.

Results

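Adult mouse cerebellum and hippocampus were compared gene by gene in the 6 arrays of wild-type mice at 10 weeks, 3 of cerebellum and 3 of hippocampus, out of the 18 arrays of the study. The arrays were chosen by their labels alone (genotype, age and tissue). The mice were male wild-type littermates of the PrP-htt-N171-82Q strain, which carries a huntingtin fragment transgene, on a mixed DBA and C57BL/6J background. Each array (Affymetrix Mouse Gene 1.0 ST) was hybridised with RNA pooled from 3 to 4 animals. A p-value therefore measures the spread between pools, and the variation between single animals is averaged within each pool. A further 6 arrays of the same age held cerebellum and hippocampus of male transgenic (N171-HD82Q) mice, and 3 held hippocampus of female wild-type mice at 20 weeks. Both sets are used below to put the wild-type tissue difference beside another measurement of its kind. The tissues were dissected whole, so that every value is a mixture over all cells of the tissue, and fewer cells of a type cannot be told apart from less RNA per cell.

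The cerebellar cortex is built around Purkinje cells, large GABAergic neurons that carry its only output, and around granule cells, the most numerous neurons of the brain, which excite them through parallel fibres. Inhibitory interneurons, unipolar brush cells and the specialised astrocytes called Bergmann glia complete the circuit. The hippocampus is part of the forebrain and is built from glutamatergic principal neurons, the pyramidal cells of the CA fields and the granule cells of the dentate gyrus, with a diverse minority of GABAergic interneurons. The 2 tissues come from different parts of the neural tube, the hippocampus from the telencephalon and the cerebellum from the hindbrain, and the transcription factors that lay out each region often stay active in its adult neurons.

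The tissues appear to have been normalised in separate runs. Arrays of 1 set (a tissue at an age, both genotypes) shared between 76 and 150 exact values with each other, arrays of different sets shared 0 to 2, and the median log2 value was 7.64 to 7.68 on the cerebellum arrays against 6.21 to 6.34 on the hippocampus arrays. Tissue and normalisation run cannot be told apart in log2 levels, so each of 19938 genes was given its percentile rank within each array, and the ranks were compared. A rank of 99 means that the gene's signal lay above that of 99% of the genes on that array. Differences are given in percentile points, cerebellum minus hippocampus, so that a negative value is a gene higher in hippocampus. All means are over 3 arrays per tissue and all errors after ± are standard errors of the difference. A rank depends on the probes as well as on the RNA, so differences are taken between tissues for the same gene, and a high rank describes the signal of a probe set and not the amount of RNA relative to other genes. Ranks correlated at 0.997 to 0.998 between cerebellum arrays, at 0.993 to 0.998 between hippocampus arrays, and at 0.928 to 0.943 across tissues.

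A gene was called where the limma test on ranks gave a Benjamini-Hochberg adjusted p below 0.05 and the means differed by at least 25 points. By this rule 660 genes (3.31% of 19938) differed between the tissues, 298 of them higher in cerebellum (1.49%) and 362 higher in hippocampus (1.82%). The p-value alone separates little, since 12281 genes (61.6%) had an adjusted p below 0.05 and every gene that moved by 25 points was among them. The median difference over all genes was -0.13 points and the median size 4.07 points. A called gene was taken to mark a tissue where its mean rank there was at least 75 and the arrays of the tissues did not overlap. Cerebellum was marked by 128 genes (0.642%) and hippocampus by 235 (1.18%). Median-centred log2 values, called at a difference of 1 with the rank minimum kept, gave 565 genes marking cerebellum against 410 marking hippocampus. The cerebellar share was then 58.0% in place of 35.3%. Quantile-normalised log2 values gave a share of 44.6%, and ranks with a size rule of 10 points gave 49.5%. A size rule of 40 points gave 31.4%, and ranks among all probe sets gave 28.4%. The numerical balance between the tissues thus varied in both directions with these settings.

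**Figure D1:**
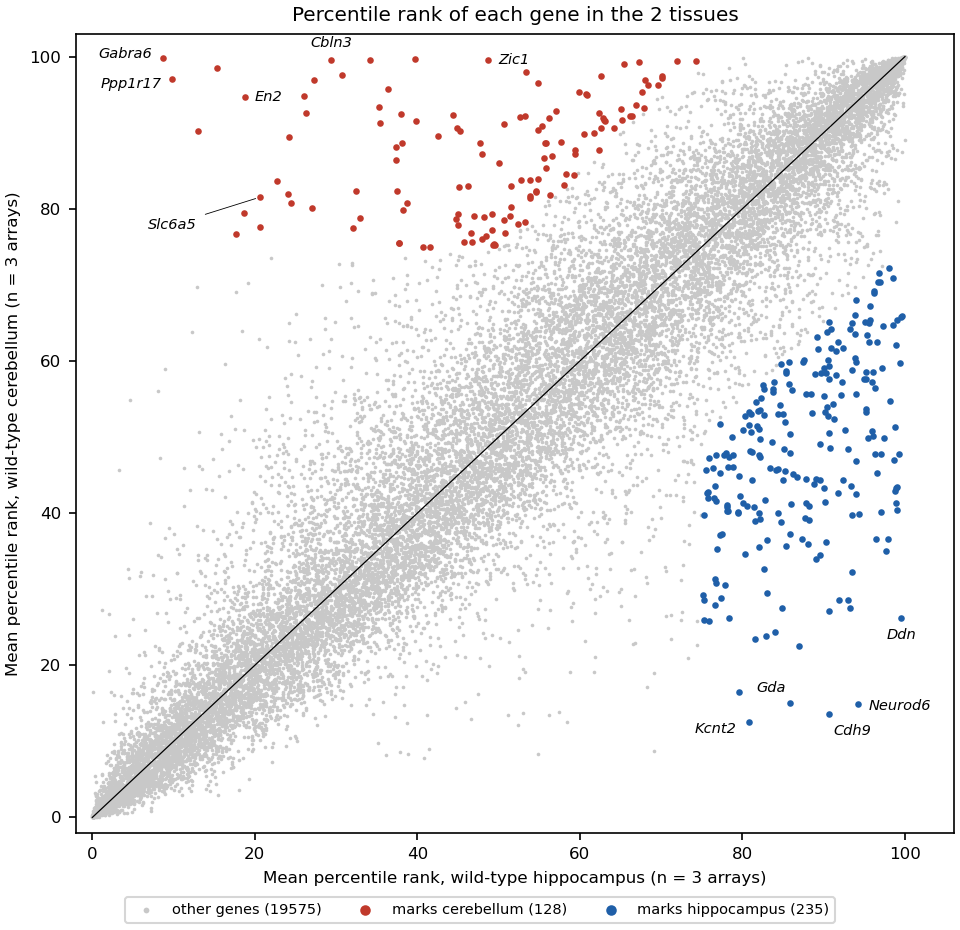
Mean percentile rank of each of the 19938 genes in wild-type hippocampus (x axis) and wild-type cerebellum (y axis), 3 arrays each. The 128 red points mark cerebellum, the 235 blue points mark hippocampus, and the line is equality. Gabra6 sits at 99.8 in cerebellum and 8.64 in hippocampus, and Neurod6 at 14.9 and 94.2.

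The genes that marked cerebellum had a median rank of 88.6 there and 50.4 in hippocampus, and 63 of the 128 lay below rank 50 in hippocampus. The genes that marked hippocampus had a median rank of 87.9 there and 47.9 in cerebellum, and 130 of the 235 lay below rank 50 in cerebellum. Differences over 50 points were found for 29 and 40 of them. The marking genes hold 1 predicted gene or unnamed clone in cerebellum and 6 in hippocampus, which are counted and not named.

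Gabra6, the alpha 6 subunit of the GABA-A receptor that cerebellar granule cells carry, showed the largest difference of all genes. Its rank was 99.8, 99.8 and 99.8 on the cerebellum arrays and 9.06, 7.94 and 8.93 on the hippocampus arrays, a difference of 91.1 ± 0.528 points (limma, adjusted p = 1.1e-07). Each cerebellum array placed it among the brightest genes and each hippocampus array among the dimmest. Ppp1r17, a phosphatase inhibitor of Purkinje cells that is phosphorylated by cGMP-dependent kinase, ranked 97.0, 97.5 and 96.6 in cerebellum and 11.8, 8.52 and 9.26 in hippocampus (87.2 ± 0.948 points, adjusted p = 4.0e-07). Arhgef33, a guanine nucleotide exchange factor, ranked 98.8, 98.7 and 98.2 against 14.51, 16.5 and 14.9 (83.2 ± 0.695, adjusted p = 1.6e-07). Dao, which encodes the D-amino acid oxidase that degrades D-serine, ranked 90.9, 89.8 and 89.9 against 14.0, 12.98 and 12.3 (77.1 ± 0.664, adjusted p = 1.6e-07). For each of these genes the cerebellum arrays lay close together and far above all hippocampus arrays. Cnpy1, of the canopy family (68.8 ± 0.551), and the aquaporin Aqp6 (60.8 ± 1.55) were also among the 15 largest differences.

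On the hippocampal side Neurod6, a basic helix-loop-helix factor of forebrain pyramidal neurons, led. It ranked 12.6, 15.6 and 16.5 in cerebellum and 93.3, 93.5 and 95.8 in hippocampus (-79.3 ± 1.28 points, adjusted p = 1.1e-06). Cdh9, a cadherin that takes part in matching mossy fibres to CA3 cells, ranked 13.5, 13.1 and 14.2 against 89.9, 89.4 and 92.6 (-77.0 ± 0.992, adjusted p = 6.2e-07). Ddn, the postsynaptic protein dendrin whose mRNA lies in dendrites, ranked 25.01, 28.1 and 25.6 against 99.5, 99.5 and 99.6 (-73.3 ± 0.908, adjusted p = 6.2e-07). The arrays of the tissues lay far apart for all of them. Gda, the guanine deaminase also known as cypin, followed at -70.7 ± 0.551 points and Kcnt2, a sodium-activated potassium channel, at -68.3 ± 1.88. The copines Cpne4 and Cpne7, which bind phospholipids in the presence of calcium, differed by -64.4 ± 0.826 and -63.5 ± 0.870. Lpl, lipoprotein lipase, ranked 16.5, 17.0 and 15.9 against 81.0, 74.2 and 83.6 (-63.1 ± 2.39), the widest spread among these genes. The others of the 15 were Dbpht2 (-65.7), Islr2 (-63.3), the pseudokinase Camkv (-62.6), and Kcnip2, Lmo3, Pde1a and Slit1, which are described with their families.

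The regions just upstream of these genes are shown because each of these genes ranked near the bottom of the arrays in the other tissue. The sequences are the 250 bases before the first listed start site, from RefSeq on GRCm38.p6, read on the gene's strand, with CG dinucleotides, the sites of vertebrate DNA methylation, in capitals. The window of Gabra6 lies at chr11:42321073-42321322 on the minus strand and holds 2 CG dinucleotides, and that of Arhgef33 at chr17:80307157-80307406 on the plus strand and also holds 2. The window of Neurod6 lies at chr6:55681264-55681513 on the minus strand and holds 3, and that of Cdh9 at chr15:16728665-16728914 on the plus strand and holds 6. Ppp1r17 is not shown.
Gabra6: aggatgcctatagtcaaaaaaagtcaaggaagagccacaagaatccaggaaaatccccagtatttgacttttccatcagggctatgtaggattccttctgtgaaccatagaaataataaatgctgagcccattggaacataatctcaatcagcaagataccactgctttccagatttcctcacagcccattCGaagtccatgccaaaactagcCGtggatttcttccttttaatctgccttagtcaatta
Arhgef33: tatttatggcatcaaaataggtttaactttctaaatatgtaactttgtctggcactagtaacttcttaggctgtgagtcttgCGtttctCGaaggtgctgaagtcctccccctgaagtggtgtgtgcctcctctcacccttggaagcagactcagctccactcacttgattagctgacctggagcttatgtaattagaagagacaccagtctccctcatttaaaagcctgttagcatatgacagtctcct
Neurod6: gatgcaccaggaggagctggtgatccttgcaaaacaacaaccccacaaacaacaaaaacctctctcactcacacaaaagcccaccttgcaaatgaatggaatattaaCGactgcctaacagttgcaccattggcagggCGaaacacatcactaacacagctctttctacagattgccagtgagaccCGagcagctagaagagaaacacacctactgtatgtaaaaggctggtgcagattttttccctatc
Cdh9: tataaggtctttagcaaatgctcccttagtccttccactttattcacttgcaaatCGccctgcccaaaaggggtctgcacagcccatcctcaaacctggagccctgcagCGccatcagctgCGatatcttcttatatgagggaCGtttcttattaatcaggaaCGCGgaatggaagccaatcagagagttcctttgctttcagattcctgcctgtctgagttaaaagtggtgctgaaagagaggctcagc

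These windows are poor in CG for genes of this brightness. Among 4706 genes with a mean rank of at least 75 in a tissue and a listed promoter, the median window held 18 CG dinucleotides, and 5.50% held 3 or fewer. For the marking genes with a listed promoter, the median was 14 in cerebellum (96 genes) and 13 in hippocampus (the rest of 267), and 13.5% and 11.1% held 3 or fewer. Over all 15614 measured genes with a listed promoter, dim genes included, the median was 11 and the share 25.1%. The limit of 3 was set after the windows were seen, and these shares are a description with no test. Searching both strands for TATAAA found it in 6.25% and 7.02% of the cerebellum-marking and hippocampus-marking windows, against 5.25% of the bright genes. TAGGTCA, the letters bound by ROR receptors, was found in 3 of the 96 cerebellum windows and in none of the hippocampus windows, against 1.28% of the bright genes and 1.998% of all measured genes. The other motifs searched were CAGATG (7.29% and 10.5%, against 8.82% of the bright genes), TGACGTCA (2.08% and 1.75%, against 3.25%) and the NFI palindrome (in none of either set, against 0.0425%).

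**Figure D2:**
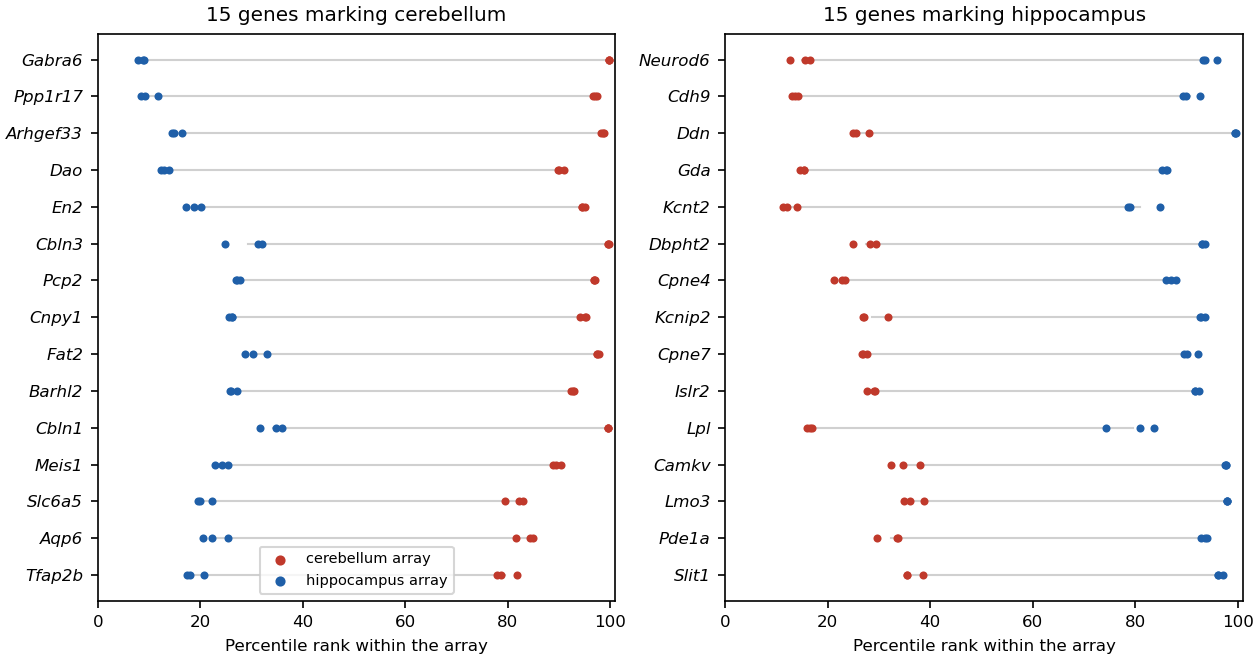
Percentile rank within each array (x axis) of the 15 genes with the largest differences that mark cerebellum (left) and hippocampus (right). Each point is an array, red for cerebellum and blue for hippocampus, and the grey line joins the tissue means. The points of the tissues do not overlap for any of the 30 genes, which the marking rule required.

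Marker genes of the resident neurons were called mainly in their own tissue. All lists here and below were chosen with earlier results of these data known, so their counts describe the tissues and test nothing. Of 22 measured markers of cerebellar granule neurons, 12 rose in cerebellum and 0 in hippocampus, and the list's median difference was 27.8 points against -0.13 over all genes. Besides Gabra6, the list was led by Cbln3, Fat2 and Barhl2. Cbln3, a secreted cerebellin of granule cells, ranked 99.6, 99.7 and 99.6 in cerebellum and 32.1, 31.2 and 24.8 in hippocampus (70.2 ± 1.95, adjusted p = 3.8e-06). Fat2, a giant protocadherin of parallel fibres, ranked 97.4, 97.8 and 97.5 against 33.1, 30.3 and 28.7 (66.9 ± 1.15). Zic1, a zinc finger factor that granule cells keep for life, ranked 99.5, 99.6 and 99.6 against 47.4, 52.3 and 46.6 (50.8 ± 1.55, adjusted p = 5.3e-06). These genes mark cerebellum, so arrays without overlap were a condition of their selection.

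Purkinje cell genes moved in the same direction. Of 32 measured, 13 rose in cerebellum and 1 was higher in hippocampus, with a median of 20.8 points. Pcp2, also called L7 and used to mark Purkinje cells, ranked 96.8, 96.9 and 97.0 in cerebellum and 27.7, 27.1 and 26.9 in hippocampus (69.7 ± 0.485, adjusted p = 1.6e-07). Car8, a carbonic anhydrase-related protein that binds the inositol trisphosphate receptor, ranked 99.7, 99.7 and 99.7 against 38.0, 40.7 and 40.5 (60.0 ± 0.833). The exception in the list was Bcl11a, a zinc finger factor of many forebrain neurons, named here after its values were seen, at 69.8, 68.7 and 69.2 against 96.6, 96.1 and 95.9 (-27.0 ± 0.544). Calb1, the calcium buffer calbindin, is abundant in Purkinje cells and also in dentate granule cells. It ranked 99.7, 99.7 and 99.7 in cerebellum and 94.6, 95.1 and 95.6 in hippocampus, a difference of 4.60 ± 0.498 points (adjusted p = 0.000596) that did not reach the size rule. With a rank this near the top there is little room for a difference in points, and its median-centred log2 difference was 1.81, called on both log2 scales.

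Among cerebellar interneuron and unipolar brush cell genes, 7 of 22 rose in cerebellum and 1, Sst, was higher in hippocampus. Slc6a5, the neuronal glycine transporter of Golgi cells and other glycinergic neurons, ranked 82.1, 79.5 and 82.9 in cerebellum and 19.5, 22.3 and 20.0 in hippocampus (60.9 ± 1.20, adjusted p = 1.5e-06). Tfap2b and Tfap2a, AP-2 factors of the cerebellar inhibitory lineage, differed by 60.8 ± 1.36 and 43.3 ± 0.578 points. Eomes, a T-box factor of unipolar brush cells and also of newborn hippocampal neurons, ranked 77.4, 81.0 and 74.6 against 19.7, 20.0 and 22.1 (57.1 ± 1.73). Of 23 Bergmann glia genes 3 rose in cerebellum and 0 in hippocampus. They were A2m (47.0 ± 0.818), the growth factor Gdf10 (35.7 ± 0.738) and Mybpc1 (32.4 ± 4.27), the last with a wide spread of 64.1, 61.5 and 48.4 over the cerebellum arrays.

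On ranks, genes of the hippocampal principal neurons were called in the opposite direction. Of 26 measured CA pyramidal genes, 12 were higher in hippocampus and 0 in cerebellum, with a median of -22.1 points. Spink8, a serine protease inhibitor of the CA1 field, ranked 8.67, 7.52 and 8.64 in cerebellum and 55.3, 52.8 and 56.4 in hippocampus (-46.6 ± 1.04, adjusted p = 2.1e-06). Mpped1 (-41.5 ± 0.815) and Ndst4, a heparan sulfate modifying enzyme (-40.3 ± 2.38), came next. Wfs1, the endoplasmic reticulum protein wolframin and a CA1 marker, ranked 75.7, 75.3 and 76.6 against 94.8, 95.1 and 93.1, a difference of -18.5 ± 0.740 points that missed the size rule though the arrays did not overlap. Of 21 genes of the CA2 and CA3 fields, 4 were higher in hippocampus and 0 in cerebellum. These were the calcium-binding protein Necab2 (-42.0 ± 1.38), the CA2 signalling regulator Rgs14 (-33.9 ± 2.04), Iyd (-33.6 ± 1.66) and the striatum-enriched phosphatase Ptpn5 (-30.3 ± 1.23). With the 20-week hippocampus in place of the 10-week set, Iyd fell short of the size rule at -20.9. Of the 21 genes, median-centred log2 values called 10 higher in hippocampus and 3 in cerebellum, and quantile-normalised values 9 and 3.

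Of 25 dentate granule genes, 7 were higher in hippocampus and 0 in cerebellum, with a median of -11.5 points. Median-centred log2 values called 10 of the 25 higher in hippocampus and 2 in cerebellum, and quantile-normalised values 11 and 2. Dsp, the desmosomal protein desmoplakin, ranked 24.7, 23.7 and 22.2 in cerebellum and 69.8, 71.9 and 72.1 in hippocampus (-47.7 ± 0.951, adjusted p = 1.6e-06). Lct, which encodes lactase and marks dentate granule cells in the mouse brain, ranked 32.3, 29.3 and 30.1 against 77.0, 78.1 and 78.3 (-47.2 ± 0.927). C1ql2, a secreted C1q-like protein of mossy fibre terminals, ranked 41.0, 40.4 and 42.2 against 84.6, 83.2 and 90.1 (-44.8 ± 1.86). Prox1, the homeobox factor that defines dentate granule cells, ranked 74.8, 72.4 and 77.5 in cerebellum and 85.0, 86.0 and 84.0 in hippocampus (-10.1 ± 1.38, adjusted p = 0.00151), without overlap and below the size rule.

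GABAergic neurons are present in both tissues, and markers of their forebrain subtypes were called mainly in hippocampus. Of 32 measured interneuron genes, ranks called 10 higher in hippocampus and 1 in cerebellum, with a median of -16.8 points. By the sign of the difference alone, 24 were higher in hippocampus and 8 in cerebellum. Both log2 scales called 16 higher in hippocampus and 5 in cerebellum. Lamp5, a marker of neurogliaform interneurons, ranked 34.7, 24.2 and 24.8 in cerebellum and 77.2, 75.5 and 77.1 in hippocampus (-48.7 ± 2.88). Kcnc2, the fast Kv3.2 channel, ranked 39.0, 31.5 and 41.1 against 87.2, 84.8 and 85.4 (-48.6 ± 2.55). Crhbp, which binds corticotropin-releasing hormone, and Vip, the vasoactive intestinal peptide, differed by -45.3 ± 1.68 and -42.7 ± 1.42 points. The gene called higher in cerebellum on ranks was Pvalb, parvalbumin, which Purkinje cells and basket and stellate cells also make. It stood at 25.2 points, close to the size rule, and is named after its values were seen.

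**Figure D3:**
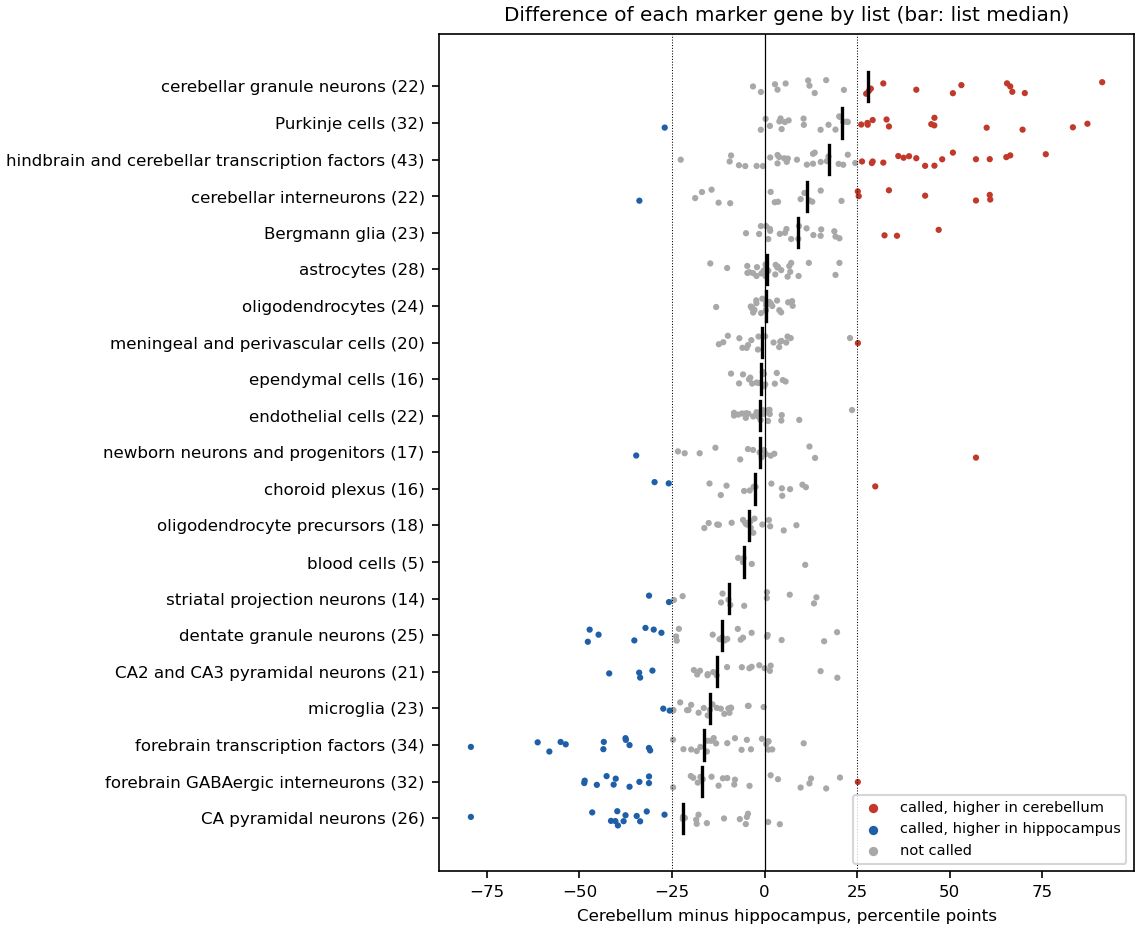
Difference of mean percentile rank, cerebellum minus hippocampus (x axis), of each measured gene in 21 marker lists, with the number of measured genes in parentheses. Points are genes, coloured where called, the black bar is the list median, and the dotted lines are at -25 and 25 points. Neuronal lists spread to both sides, with granule neurons at a median of 27.8 and CA pyramidal neurons at -22.1, and astrocyte and oligodendrocyte lists stay within the dotted lines.

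None of 28 astrocyte genes, 24 oligodendrocyte genes, 18 oligodendrocyte precursor genes, 22 endothelial genes or 16 ependymal genes was called, and the medians of these lists ran from -4.08 to 0.697 points. Over all genes 3.31% were called, so an absence of calls in lists this short says little about these cells. On both log2 scales 6 of the astrocyte genes and 1 endothelial gene were called, all higher in cerebellum, and 0 of the other 3 lists. Gfap, the intermediate filament of astrocytes, ranked 79.7, 75.3 and 74.9 in cerebellum and 86.8, 87.4 and 86.0 in hippocampus (-10.1 ± 1.41, adjusted p = 0.0016). Microglia differed from the other glial lists in that 23 of 23 measured genes had the lower mean in cerebellum, with a median of -14.8 points, though 2 passed the size rule. Fcer1g, an Fc receptor subunit, ranked 45.3, 44.7 and 43.2 against 70.7, 73.7 and 70.8 (-27.4 ± 1.07). P2ry12, the ADP receptor of resting microglia, ranked 41.1, 42.5 and 36.5 against 63.3, 67.5 and 66.3 (-25.6 ± 1.87). Both stood close to the limit, and ranks taken among all probe sets put them at -24.6 and -24.1 points. P2ry12 was also below it without cerebellum array 3 (-23.9), without hippocampus array 2 (-24.7) and against the 20-week hippocampus (-23.5).

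Choroid plexus genes varied between pools of 1 tissue. Ttr, transthyretin, which the choroid plexus secretes, ranked 99.7, 93.3 and 99.1 in cerebellum and 87.0, 99.6 and 99.95 in hippocampus, with overlap (1.84 ± 3.95, adjusted p = 0.711). Kl, which encodes klotho, ranked 53.2, 37.6 and 49.8 against 64.7, 70.5 and 83.1 (-25.9 ± 6.01), and Sostdc1, a BMP antagonist, 44.7, 30.8 and 42.1 against 53.9, 67.6 and 85.2 (-29.7 ± 8.34, adjusted p = 0.0235). Otx2, a homeobox factor of the choroid plexus, went the other way at 61.3, 59.5 and 56.4 against 22.0, 26.2 and 39.3 (29.9 ± 4.52), so that of 16 measured genes 1 rose in cerebellum and 2 in hippocampus. The calls of Kl and Sostdc1 rest on single pools. Without hippocampus array 3 they were -20.7 and -21.6 points, and without cerebellum array 2 Kl stood at -21.3. The adjusted p of Sostdc1 was 0.0765, 0.0555 and 0.0597 without cerebellum array 2, cerebellum array 3 and hippocampus array 2. With the 20-week hippocampus Otx2 stood at 23.4 points.

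Of the remaining cell lists, meningeal and perivascular genes gave 1 call of 20, Aldh1a2, a retinaldehyde dehydrogenase, at 25.2 ± 1.70 points. That value lay at the limit and fell below 25 when cerebellum array 2 or 3 or hippocampus array 1 or 2 was left out (23.76 to 24.98 points), and against the 20-week hippocampus (20.7). Genes of newborn neurons and progenitors gave 1 call each way of 17, Eomes as above and Ccnd2, a cyclin of dividing progenitors, at -34.7 ± 1.45. Striatal projection neuron genes gave 2 of 14, both higher in hippocampus, the tachykinin gene Tac1 (-31.2 ± 2.42) and the forkhead factor Foxp1 (-25.8 ± 0.824, and -22.3 against the 20-week hippocampus). None of the 5 measured blood cell genes was called, against 3.31% of all genes.

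Transcription factors of the 2 brain regions were called in opposite directions. Of 43 measured factors of hindbrain and cerebellum, 17 rose in cerebellum and 0 in hippocampus, with a median of 17.3 points. En2, the engrailed factor that patterns the midbrain and hindbrain, ranked 94.99, 94.5 and 94.4 in cerebellum and 20.2, 18.7 and 17.2 in hippocampus (75.9 ± 0.857, adjusted p = 4.2e-07). Barhl2, a homeobox factor, ranked 92.7, 93.0 and 92.3 against 26.0, 25.8 and 27.1 (66.3 ± 0.571). Meis1, a TALE homeobox factor, ranked 90.3, 89.4 and 88.7 against 24.3, 22.9 and 25.4 (65.3 ± 0.842). Within the Zic, En, Irx and Hox genes, 5 of 24 rose, among them Zic5 (39.0 ± 1.37) and Zic4 (36.1 ± 0.638). Zic4 has several probe sets, and their mean rank differed by 18.1 points.

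Of 34 measured forebrain factors, 12 were higher in hippocampus and 0 in cerebellum, with a median of -16.5 points. Beyond Neurod6, Lmo3, a LIM-only cofactor, ranked 38.8, 34.9 and 36.1 in cerebellum and 97.9, 97.9 and 97.9 in hippocampus (-61.3 ± 1.05, adjusted p = 1.2e-06). Tbr1, a T-box factor of glutamatergic forebrain neurons, ranked 23.2, 23.4 and 23.8 against 81.7, 82.5 and 80.6 (-58.1 ± 0.651). Fezf2, a zinc finger factor of projection neurons, ranked 33.0, 33.1 and 37.3 against 90.4, 89.2 and 89.1 (-55.1 ± 1.32). Among 32 nuclear receptors 1 rose in cerebellum, the orphan receptor Esrrg (26.3 ± 1.61). The 3 higher in hippocampus were Nr2e1, also called Tlx (-37.5 ± 0.814), the mineralocorticoid receptor Nr3c2 (-28.5 ± 0.596) and Nr4a3 (-26.6 ± 0.923). Without hippocampus array 3 Esrrg stood at 24.95 points, and against the 20-week hippocampus Nr4a3 stood at -21.3.

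Of 16 measured GABA-A subunits, 2 rose in cerebellum and 2 in hippocampus. Gabrd, the delta subunit that pairs with alpha 6 outside synapses, ranked 92.1, 92.6 and 90.2 in cerebellum and 63.6, 62.3 and 63.1 in hippocampus (28.7 ± 0.811, adjusted p = 4.0e-06), and 22.7 points among all probe sets. Gabra5, the alpha 5 subunit of extrasynaptic receptors on pyramidal cells, ranked 44.4, 37.0 and 48.7 against 98.9, 98.95 and 99.1 (-55.6 ± 2.86, adjusted p = 3.7e-05). Gabrg3, a gamma subunit, ranked 46.3, 43.9 and 45.0 against 87.2, 86.5 and 85.0 (-41.2 ± 0.903). Glycine receptors and transporters gave 2 calls of 7, both higher in cerebellum, Slc6a5 and the receptor subunit Glra1, which ranked 56.7, 46.1 and 50.1 against 17.6, 19.6 and 18.8 (32.3 ± 2.64). Against the 20-week hippocampus Glra1 differed by 20.4 points. Glrb, the beta subunit that all adult glycine receptors share, ranked 98.1, 98.5 and 97.9 against 96.6, 96.8 and 96.9 (1.44 ± 0.469) and was not called.

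Among the 6 measured NMDA receptor subunits, Grin2b, the subunit that predominates in the forebrain and early in development, was the one called on ranks. It ranked 53.4, 53.9 and 57.0 in cerebellum and 97.9, 98.2 and 98.4 in hippocampus (-43.4 ± 1.04, adjusted p = 2.5e-06). Grin2c, the subunit that mature granule cells acquire, ranked 88.0, 88.7 and 88.7 against 67.4, 66.9 and 66.9 (21.4 ± 0.504), without overlap and below the size rule. Grin2a differed by -10.5 ± 1.03, Grin3a by -9.36 ± 1.31, Grin3b by 8.73 ± 2.42 and Grin2d by 1.40 ± 1.19 points. Both log2 scales also called Grin2c higher in cerebellum (1.56 after median centring) and Grin2a higher in hippocampus (-1.40). None of the 10 AMPA, kainate and delta receptor subunits was called on ranks, against 3.31% of all genes, which says little for so few genes. On both log2 scales 5 were called. Gria4 (2.67 after median centring) and Grik2 (1.15) were higher in cerebellum, and Grik4 (-1.11), Grik5 (-1.14) and Grid1 (-1.31) in hippocampus. Rank differences of the 10 subunits ran from -22.5 ± 0.552 for Grid1, a delta receptor, to 18.8 ± 0.757 for Gria4, an AMPA subunit with fast kinetics. The other AMPA subunits stood close to the top of both tissues, with Gria1 at -0.996 ± 0.447 and Gria2 at -1.47 ± 0.487 points.

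Metabotropic glutamate receptors gave 1 call each way of 7. Grm4, a presynaptic group III receptor of parallel fibres, ranked 97.9, 98.5 and 97.6 in cerebellum and 53.7, 55.0 and 51.3 in hippocampus (44.6 ± 1.02, adjusted p = 2.2e-06). Grm5, a group I receptor that couples to phospholipase C, ranked 64.6, 60.0 and 69.7 against 98.5, 98.5 and 98.5 (-33.7 ± 2.36, adjusted p = 0.000117). Of the uncalled receptors, Grm7 differed by -23.7 ± 1.34 and Grm2 by -18.8 ± 1.15 points toward hippocampus, and Grm8 by 15.5 ± 1.32 toward cerebellum. The remaining 2 were within 5 points, Grm3 at -4.30 and Grm6 at -0.91.

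Receptors for neuromodulators were called in hippocampus and in no case in cerebellum. Over all genes 1.49% were called higher in cerebellum and 1.82% in hippocampus. The absence of cerebellar calls in lists this short therefore says little. Of 14 serotonin receptors, 6 were higher in hippocampus, with a list median of -19.6 points. Htr1a, the inhibitory 5-HT1A receptor, ranked 17.6, 19.3 and 20.1 in cerebellum and 68.4, 67.9 and 70.8 in hippocampus (-50.0 ± 1.06, adjusted p = 1.9e-06). Htr4, which couples to cyclic AMP, ranked 29.8, 30.1 and 32.8 against 77.8, 76.4 and 75.9 (-45.8 ± 1.03), and Htr3a, the ion channel receptor, 21.2, 20.5 and 21.4 against 65.3, 54.8 and 65.3 (-40.8 ± 2.95). Htr2c ranked 51.0, 39.2 and 52.1 against 74.0, 76.1 and 85.1 (-31.0 ± 4.48). It is also abundant in choroid plexus, and its arrays followed Sostdc1 and Kl, lowest on cerebellum array 2 and highest on hippocampus array 3. The part of choroid plexus in this difference was not tested. Of 12 measured dopamine, adrenergic and muscarinic receptors, 5 were higher in hippocampus. They included the muscarinic receptors Chrm3 (-48.7 ± 1.70), Chrm1 (-44.5 ± 1.05) and Chrm4 (-33.7 ± 1.29) and the dopamine receptor Drd5 (-37.5 ± 2.13).

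**Figure D4:**
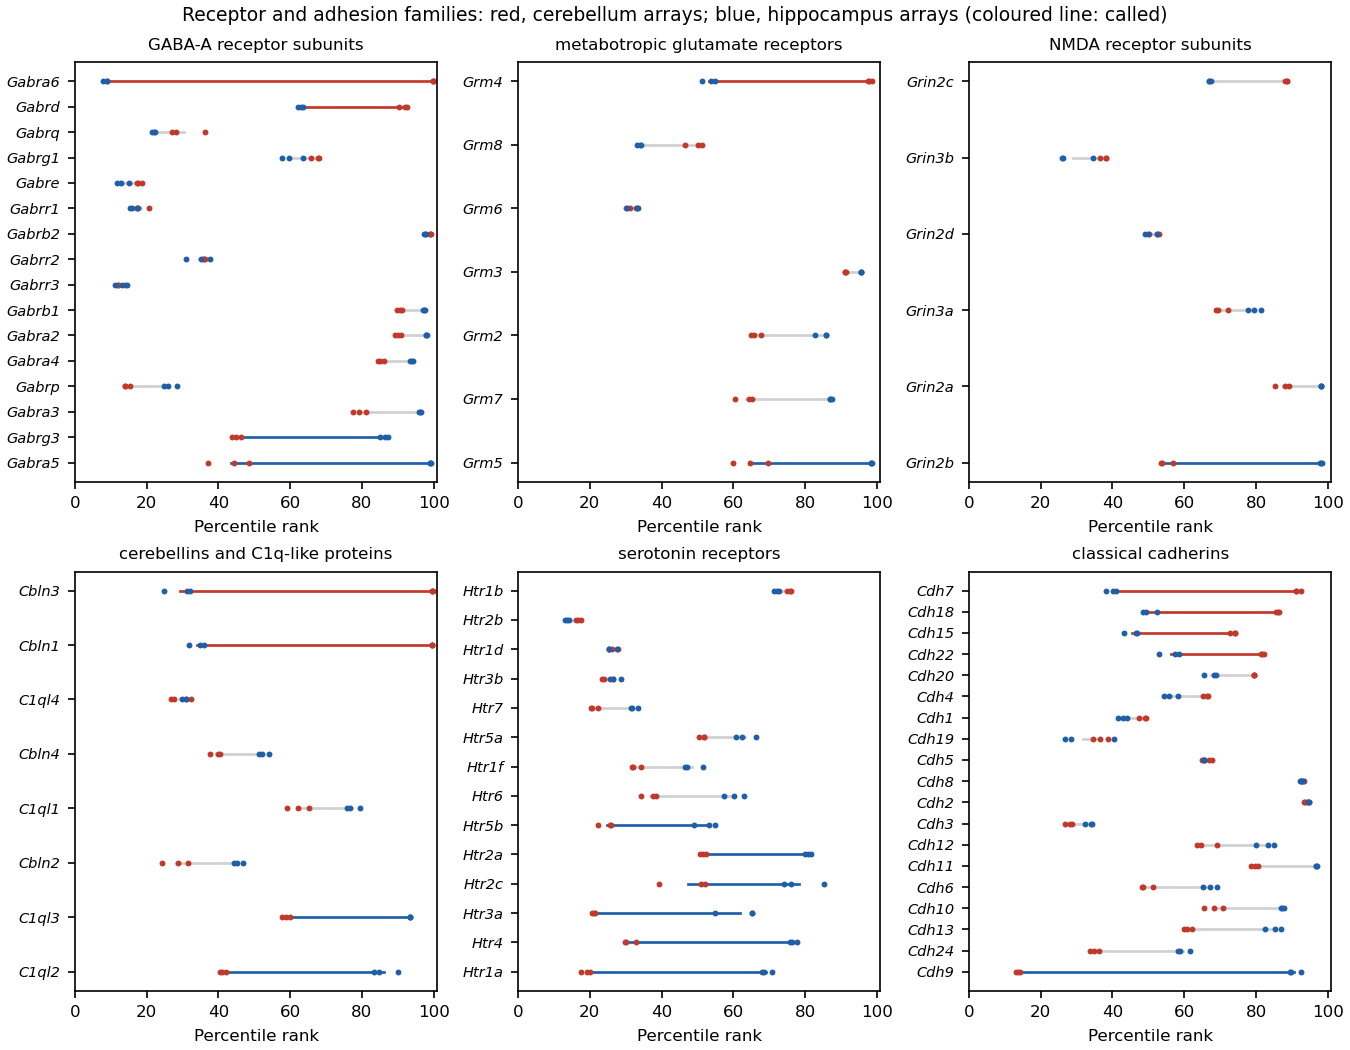
Percentile rank (x axis) of every measured member of 6 families, ordered by difference. Points are arrays, red for cerebellum and blue for hippocampus, and lines join the tissue means, coloured where the gene was called. On ranks, GABA-A subunits, metabotropic glutamate receptors, cerebellins with C1q-like proteins and cadherins hold called members on both sides. Serotonin receptors and NMDA subunits hold them in hippocampus alone on ranks, while log2 values also called the NMDA subunit Grin2c, higher in cerebellum.

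Ion channel genes were called on both sides. Of 36 potassium channel genes outside the Kv1 to Kv4 families, 2 rose in cerebellum and 9 in hippocampus. Kcnv1, a silent subunit that modifies Kv2 channels, ranked 23.4, 20.6 and 27.7 in cerebellum and 84.4, 80.8 and 83.4 in hippocampus (-58.9 ± 1.98, adjusted p = 7.9e-06). Kcnq5, which contributes to the M current, ranked 41.4, 43.9 and 45.4 against 93.4, 93.3 and 93.2 (-49.8 ± 1.08), and Kcnj12, an inward rectifier, went the other way at 39.3 ± 0.652. In the Kv1 to Kv4 families 2 of 15 were called, Kcnc2 as above and Kcna4 (-45.5 ± 1.63), both higher in hippocampus. Among 14 sodium and HCN channel genes the beta subunits diverged. Scn3b ranked 40.7, 41.8 and 46.2 against 98.6, 98.7 and 98.9 (-55.8 ± 1.48), and Scn4b, the subunit linked to the resurgent current of Purkinje cells, 68.5, 71.9 and 69.7 against 27.0, 28.9 and 28.9 (41.8 ± 1.06). Of 23 calcium channel subunits 4 were called on ranks, all higher in hippocampus, led by the T-type channel Cacna1h (-43.0 ± 1.31) and Cacng3, which also assists AMPA receptors (-37.4 ± 1.91). Median-centred log2 values called 6 of the 23 higher in cerebellum and 4 in hippocampus. Quantile-normalised log2 values called 4 and 6.

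Calcium and G protein signalling genes were called on both sides. Atp2a3, the calcium pump SERCA3, ranked 87.6, 87.5 and 89.4 in cerebellum and 38.7, 36.2 and 37.3 in hippocampus (50.8 ± 0.914, adjusted p = 1.2e-06). The receptor-operated channels Trpc4 (-47.3 ± 1.15) and Trpc6 (-35.2 ± 0.991) were higher in hippocampus. Plcb4, the phospholipase C that acts downstream of Purkinje cell glutamate receptors, ranked 99.02, 99.2 and 98.9 against 67.1, 65.8 and 63.5 (33.6 ± 0.976). The G protein gamma subunits Gng13 and Gng7 went opposite ways, at 27.8 ± 0.602 and -28.4 ± 1.33. Among all probe sets they stood below the size rule at 22.3 and -22.9 points, and against the 20-week hippocampus Gng13 stood at 20.7. Among 18 phosphodiesterases, which degrade cyclic nucleotides, 4 rose in cerebellum and 3 in hippocampus. The calmodulin-dependent pair divided, with Pde1c at 41.6 ± 1.62 and Pde1a at -61.1 ± 1.20 points, and the cGMP-specific Pde5a stood at 32.9 ± 0.871. Of 26 calcium-binding proteins 2 rose in cerebellum and 4 in hippocampus, the latter Kcnip2, an auxiliary subunit of Kv4 channels (-64.4 ± 1.44), Necab2, Hpcal4 (-36.9 ± 0.699) and the calmodulin-binding neurogranin Nrgn (-33.7 ± 4.00).

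None of 19 CaM kinase and protein kinase C genes was called, against 3.31% of all genes, and this list shows a limit of the rank scale. Camk2a, the alpha subunit of CaM kinase II, ranked 89.2, 88.6 and 89.2 in cerebellum and 99.96 on each hippocampus array (-11.0 ± 0.464 points, adjusted p = 1.8e-05). After median centring its log2 difference was -3.31, close to the -3.16 of Spink8, which moved by -46.6 points. A gene at the top of both scales has little room in rank, so its difference in points is small whatever the log2 difference. For several lists with rank calls in a single tissue, log2 values gave calls in both, among them synaptic organisers, neuropeptides and immediate early genes. All 135 called genes among the 170 chosen for naming were also called on median-centred and on quantile-normalised log2 values, with 14 and 15 more of the 170 called on those scales. Both scales use the same arrays as the ranks, so this agreement is not independent. Ranks taken among all probe sets put 17 of the 135 below the size rule, from -24.6 (Fcer1g) to -20.4 points (Cacnb1, a calcium channel beta subunit) on the hippocampal side.

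Of 8 cerebellins and C1q-like proteins, which bridge the synaptic cleft, Cbln3 and Cbln1 rose in cerebellum and C1ql2 and C1ql3 in hippocampus. Cbln1, which links parallel fibres to Purkinje cells through neurexin and the delta 2 receptor, ranked 99.6, 99.6 and 99.6 in cerebellum and 34.8, 35.9 and 31.7 in hippocampus (65.4 ± 1.14, adjusted p = 1.2e-06). C1ql3 ranked 58.8, 57.7 and 59.8 against 93.3, 93.5 and 93.5 (-34.6 ± 0.672). Of 19 classical cadherins 4 rose in cerebellum on ranks, among them Cdh7 at 91.2, 91.2 and 92.4 against 40.2, 41.0 and 38.2 (51.8 ± 0.877). On ranks Cdh9 alone was called in hippocampus. Median-centred log2 values called 4 of the 19 higher in cerebellum and 5 in hippocampus, and quantile-normalised values 4 and 7. The leucine-rich repeat organisers Lrrtm1 (-42.5 ± 1.72), Lrrtm4 (-37.9 ± 1.09), Lrfn2 (-33.1 ± 0.656) and Lrfn5 (-32.7 ± 0.493) were the 4 calls among 29 synaptic organisers, all higher in hippocampus. Among 20 synaptotagmins and complexins, 3 rose in cerebellum, the calcium sensors Syt9 (35.5 ± 0.818) and Syt2 (32.9 ± 0.946) and Syt12 (31.1), the last named after its values were seen. The 2 higher in hippocampus were Syt17 (-51.5 ± 2.14) and Syt16 (-32.6 ± 1.57). Slc1a6, the glutamate transporter EAAT4 of Purkinje cells, ranked 89.4, 90.3 and 90.9 against 45.4, 45.5 and 44.6 (45.0 ± 0.623).

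Guidance cues, peptides and activity-dependent genes were called on ranks mainly in hippocampus. Of 21 Eph receptors and ephrins 5 were higher there and 0 in cerebellum, led by Epha6, which ranked 44.4, 49.0 and 49.9 in cerebellum and 95.5, 96.1 and 97.4 in hippocampus (-48.6 ± 1.56, adjusted p = 6.4e-06). Of 31 semaphorins and plexins, with their neuropilin receptors, Nrp1 (-46.4 ± 1.14) and Sema3e (-27.5 ± 0.950) were higher in hippocampus and Sema3a (32.5 ± 1.05) in cerebellum. Sema3e stood at -20.3 against the 20-week hippocampus and at -22.9 among all probe sets, below the size rule. Of the 31 genes, median-centred log2 values called 4 higher in hippocampus and 5 in cerebellum, and quantile-normalised values 5 and 2. Slit1, a repellent of axons, differed by -59.9 ± 1.02. Of 25 neuropeptide and granin genes 5 were higher in hippocampus and 0 in cerebellum. Gastrin-releasing peptide, Grp, ranked 36.0, 35.3 and 38.5 against 89.1, 84.7 and 88.3 (-50.8 ± 1.44), and somatostatin, Sst, 63.7, 60.3 and 73.1 against 99.6, 99.5 and 99.5 (-33.8 ± 3.20). Of 29 immediate early genes 5 were higher in hippocampus and 0 in cerebellum, with a median of -8.56 points. They were led by the prostaglandin synthase Ptgs2 at 36.5, 31.3 and 39.97 against 88.3, 85.1 and 90.6 (-52.1 ± 2.51), with Egr3 at -30.9 ± 1.11 and the pentraxin Nptx2 at -26.7 ± 1.43. None of 31 cytosolic ribosomal protein genes and none of 40 respiratory chain genes was called, against 3.31% of all genes. Their medians were -0.62 and 0.31 points. Both lists stand near the top of the ranks, with median ranks from 90.9 to 95.9, where a given log2 difference moves a rank by fewer points. On both log2 scales 0 of them were called as well.

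Among 296 measured genes of microRNA precursors, 11 rose in cerebellum and 2 in hippocampus, with a median of 1.00 points. Over all genes the shares were 1.49% and 1.82%. Median ranks of the precursor genes were low, 24.9 in cerebellum and 18.6 in hippocampus, and 2 of the 11 reached a mean rank of 75 in cerebellum. MicroRNAs pair with target mRNAs mainly through the seed, bases 2 to 8 of the mature strand, which is in capitals below. The array reads a precursor gene or its transcript and does not tell the mature arms apart, so both arms are given for the first 4 genes. The sequences are from RefSeq on GRCm38.p6 and are shown for the genes that marked a tissue or were called in hippocampus, and for 2 let-7 genes by the 5p strands that share a seed.
miR-181b-5p: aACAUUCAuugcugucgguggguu
miR-181b-1-3p: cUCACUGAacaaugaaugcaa
miR-382-5p: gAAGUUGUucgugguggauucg
miR-382-3p: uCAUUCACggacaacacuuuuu
miR-137-5p: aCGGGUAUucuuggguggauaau
miR-137-3p: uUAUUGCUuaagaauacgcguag
miR-218-5p: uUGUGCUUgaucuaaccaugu
miR-218-1-3p: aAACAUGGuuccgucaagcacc
let-7d-5p: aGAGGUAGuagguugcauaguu
let-7f-5p: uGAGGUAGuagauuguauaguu

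Mir181b-1 ranked 76.6, 78.2 and 75.9 in cerebellum and 47.5, 47.8 and 56.9 in hippocampus (26.1 ± 2.66, adjusted p = 0.000465). Mir382 ranked 73.5, 82.6 and 78.8 against 47.0, 57.0 and 55.7 (25.1 ± 3.42). These were the precursor genes that marked cerebellum, and no precursor gene marked hippocampus. Both marks lay close to the size rule and neither gene was called in transgenic mice (15.6 and 22.4 points). Mir181b-1 was not called without hippocampus array 1 (24.5) or 2 (24.7) or among all probe sets (20.98). Mir382 was not called among all probe sets (20.02), against the 20-week hippocampus (16.8), or without cerebellum array 2 (22.9), cerebellum array 3 (24.8) or hippocampus array 1 (21.99). It was also not called with ranks among the 21789 single-symbol probe sets averaged per gene (24.9). That setting changes the set that is ranked, so it also moves genes with 1 probe set. Mir218-1 ranked 15.9, 12.998 and 16.5 in cerebellum and 44.9, 41.5 and 51.2 in hippocampus (-30.7 ± 2.55, adjusted p = 0.000216). Mir137 ranked 12.9, 11.8 and 12.6 against 37.4, 34.8 and 43.9 (-26.3 ± 2.32). Both were called in hippocampus at ranks below the middle of the array, and against the 20-week hippocampus they stood below the size rule at -23.1 and -23.3 points. Mir137 was also below it without hippocampus array 3 (-23.7), and at -17.8 in transgenic mice. The let-7 pair was higher in cerebellum, Mirlet7d at 55.4, 57.5 and 56.8 against 24.4, 25.1 and 31.2 and Mirlet7f-1 at 29.4, 39.2 and 29.5 against 4.58, 3.98 and 4.75. Against the 20-week hippocampus Mirlet7d differed by 16.4 points and lost its call, and Mirlet7f-1 by 27.7. Their 5p strands share the seed GAGGUAG. The largest difference was that of Mir384, at 52.5, 58.8 and 56.6 against 2.53, 4.46 and 17.3 (47.9 ± 4.17), and hippocampus array 3 stood above the other 2. That array was the highest of the hippocampus arrays for every called precursor gene except Mir30b and Mir382. The cause of this shared shift was not tested. The other precursor genes called in cerebellum were Mir186, Mir204, Mir30b, Mir412, Mir690 and Mir7-1. Of these, Mir186 (24.7), Mir690 (18.98) and Mir7-1 (-0.87) were not called against the 20-week hippocampus. Mir7-1 was itself called between the hippocampus ages (26.1). It fell below 25 points among all probe sets (22.2), with single-symbol ranks averaged per gene (24.7), and without cerebellum array 2 or hippocampus array 1 or 2 (24.3 to 24.7). Mir690 differed by 22.7 points in transgenic mice. These precursor genes were named because they were called, after their values were seen.

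The transgenic arrays measured the same tissue difference in other animals, within the same normalisation runs. They gave 605 called genes (3.03%), 285 higher in cerebellum (1.43%) and 320 in hippocampus (1.6%), and 102 and 188 genes marked the tissues (0.512% and 0.943%). Of the 128 genes that marked cerebellum in wild-type mice, 92 were called in transgenic mice and 78 marked it there, 60.9% of the wild-type and 76.5% of the transgenic set. Of the 235 that marked hippocampus, 189 were called and 166 marked it, 70.6% and 88.3% of the sets. All 128 and all 235 kept their sign in the transgenic arrays, with smallest differences of 8.21 and 6.10 points. Gabra6 differed by 92.7 points there, Cbln3 by 70.7, Neurod6 by -66.9 and Ddn by -73.6.

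The wild-type hippocampus at 20 weeks gives the size of rank differences within 1 tissue across separate runs. Set against the 10-week hippocampus, which the tissue comparison also uses, 8055 genes (40.4%) had an adjusted p below 0.05, and 20 (0.1%) were called. Of these, 14 were higher at 20 weeks (0.0702%) and 6 at 10 weeks (0.0301%). The animals differed in sex, and the largest differences were those of Xist (88.6 points), the RNA that silences the female inactive X, and of Eif2s3y (-73.9), Uty (-66.4) and Kdm5d (-54.1), genes of the Y chromosome. These 4 genes were named after their values were seen. The genes that marked the 20-week set numbered 5 (0.0251%) and the 10-week set 1 (0.00502%). The 99th percentile of the size of all differences was 16.5 points between the ages and 38.5 points between the tissues. None of the 128 and 235 marking genes was called between the ages, where 0.1% of all genes were, so their absence says little. Without 20-week array 3 or without 10-week array 1, 9 genes in place of 14 were called higher at 20 weeks.

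**Figure D5:**
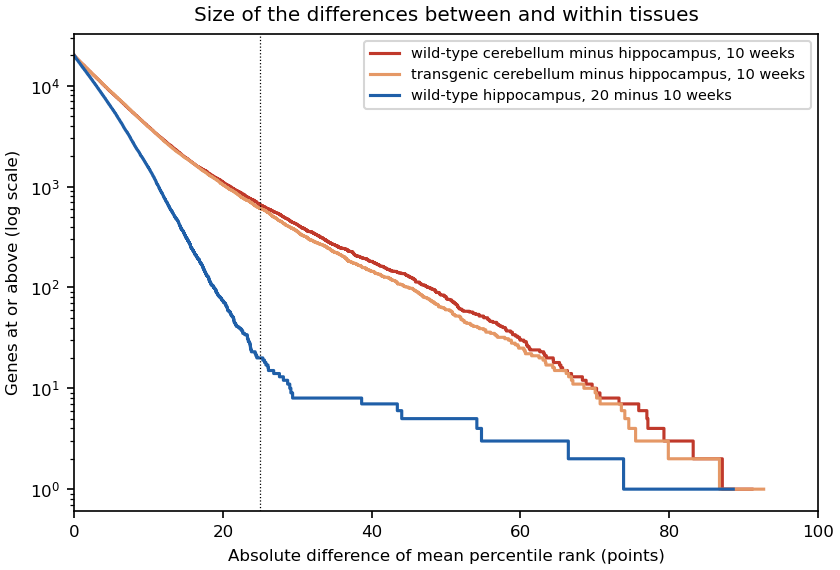
Number of genes (y axis, log scale) whose mean ranks differ by at least the value on the x axis, in percentile points. Red is wild-type cerebellum against hippocampus, orange the same in transgenic mice, and blue wild-type hippocampus at 20 against 10 weeks. At the dotted line, 25 points, the curves stand at 660, 605 and 20 genes.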

How the data were processed

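RNA was measured on 18 arrays, per the labels in 6 groups of 3, and 6 arrays enter the tissue comparison. The authors deposited RMA values on the log2 scale for each probe set and name the oligo package, per the submitters' processing notes, with no versions. The table has 35556 probe sets, of which 21789 carry exactly 1 gene symbol in the platform annotation, which may be old (1621 carry several and 12146 are unlisted). Symbols were updated through RefSeq (GRCm38.p6), which matched 21698, and each of 19938 genes was read from its brightest probe set over the 6 arrays. Ranks minus 0.5, as a percentage of the number of genes, entered limma 3.58.1 (R 4.3.3, lmFit and eBayes, two-sided) with Benjamini-Hochberg adjustment over all genes. The number of arrays limits the precision. The test was checked on simulated data.

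Genes were named by rule: the 15 marking genes with the largest difference in each tissue, up to 4 called members of each list, all members of families of 11 or fewer, and a fixed set of well-known markers. The members and the 51 gene lists were chosen with earlier results of these data known. The replicate numbers were not taken to pair the arrays. Alternatives changed the scale, the genes ranked, the row per gene, the filter, the size rule, the variance model, the hippocampus set and the arrays. No protein sequences were used here.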

Additional observations from a re-analysis of the deposited data

Results flagged for a closer look

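The tissue difference itself differed between transgenic and wild-type mice for 40 of the 170 named genes, by an interaction term over the 12 arrays of 10-week mice (limma, adjusted p below 0.05), against 639 of 19938 genes (3.2%) overall. Most named genes were chosen for a large wild-type difference, which is 1 arm of this contrast, so their share is not comparable with that of all genes, and smaller transgenic differences among them are favoured by the choice. Values are the transgenic minus the wild-type tissue difference, in percentile points.

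Among genes higher in wild-type hippocampus, the change was 29.1 for Trpc6, whose tissue difference was -35.2 points in wild-type and -6.10 in transgenic mice. It was 23.1 for Lct (-47.2 and -24.2), 22.0 for Scn3b (-55.8 and -33.8), 19.8 for Dsp (-47.7 and -27.9) and 19.1 for Ptgs2 (-52.1 and -33.0). Spink8 changed by 15.9 (-46.6 and -30.6), Drd5 by 14.48, Epha5 by 13.7, C1ql2 by 12.7, Neurod6 by 12.4, Chrm3 by 12.3, Syt16 by 12.1 and Epha6 by 11.3. Smaller changes of the same sign were those of Lrrtm4 (9.84), Prox1 (9.38), Htr1a (8.87), Cdh9 (8.47), Htr4 (7.85), Pde11a (7.69), Cpne7 (7.53), Nrp1 (7.07) and Cacng8 (6.37). Lrfn5 (4.59), Grik5 (4.58), Wfs1 (4.13) and Lrfn2 (3.91) followed. For all of these the difference toward hippocampus was smaller in transgenic mice.

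The difference toward hippocampus was larger in transgenic mice for Cacng3 (-14.6), Nr4a3 (-10.1), Camk2a (-3.83) and Gda (-3.34). The difference toward cerebellum was smaller in transgenic mice for Eomes (-26.3, from 57.1 to 30.8 points), Aqp6 (-25.6, from 60.8 to 35.2), Grm4 (-9.57), Tfap2b (-8.82), Syt9 (-7.60) and Slc1a6 (-6.29). It was larger for Gabrd (5.42), Barhl2 (3.73) and Calb1 (3.10). Grik3 changed by -8.64, from 4.69 points in wild-type to -3.95 in transgenic mice.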

How the results depend on the processing

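With 3 pools a tissue and no level on a common scale, the size rule sets how many genes are called. Counts are given as cerebellum and hippocampus. In wild-type mice 298 and 362 called genes became 954 and 1065 with median-centred log2 values and 777 and 916 with quantile normalisation. They became 63 and 118 at 40 points, 2095 and 1807 at 10 points, and 181 and 305 with ranks among all probe sets. In the same order marking genes, 128 and 235, became 565 and 410, 405 and 504, 44 and 96, 678 and 692, and 80 and 202. The median log2 difference over all genes was -0.12 and -0.11 on the log2 scales. All 363 marking genes also marked their tissue on both log2 scales, and 253 did with ranks among all probe sets. Transgenic called genes, 285 and 320, became 54 and 90 at 40 points and 173 and 270 among all probe sets. Transgenic marking genes, 102 and 188, became 34 and 71, and 59 and 155. Between 20 and 10 weeks, the 14 genes higher at 20 weeks became 7 among all probe sets and 3 at 40 points, the 5 marking 20 weeks became 3 and 2, and the 1 marking 10 weeks became 0. The nuclear receptor list's median, 2.25 points, was the 1 list median of 51 that changed sign, to -0.0551 with median-centred log2 values.

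Leaving out 1 array gave 275 to 349 and 357 to 378 called and 122 to 139 and 233 to 247 marking genes in wild-type mice. The ranges were 261 to 316, 320 to 324, 99 to 110 and 187 to 194 in transgenic mice. Between the ages they were 9 to 21 and 6 to 9 called, and 4 to 7 and 1 to 1 marking. With the replicate number as a block the wild-type counts stayed at 298, 362, 128 and 235. Deviations of arrays with the same number correlated at 0.05, -0.05 and -0.16, and no number correlated best with itself. Of the 135 called named genes, 17 were not called with ranks among all probe sets, 2 with the mean of all probe sets (Aldh1a2, Zic4), 58 at 40 points, 9 against the 20-week hippocampus and at most 3 without 1 array, and 0 changed sign. Those 17 include Gabrd (22.7 points), Gng13 (22.3), Gng7 (-22.9), Nr3c2 (-22.8), Nr4a3 (-21.2), Esrrg (20.8), Sema3e (-22.9), Foxp1 (-20.7), Cdh15 (23.1), Efna3 (-24.1), Cacng8 (-24.6) and Plch1 (24.4). The cause of these changes was not tested.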

Other observations

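Genes of several families not described above were also called. Of 19 regulators of G protein signalling 2 were higher in hippocampus and 0 in cerebellum, Rgs14 and Rgs4, which ranked 46.6, 45.9 and 45.1 in cerebellum and 84.5, 83.7 and 81.9 in hippocampus (-37.5 ± 0.861 points). Pde11a, a phosphodiesterase of both cyclic nucleotides, ranked 25.6, 24.8 and 27.4 against 66.6, 65.6 and 66.0 (-40.1 ± 0.817). Scn3a, a sodium channel alpha subunit, ranked 14.0, 13.2 and 13.8 against 50.3, 50.7 and 58.0 (-39.3 ± 2.12), and Kcng3, a modifier of Kv2 channels, 27.6, 26.0 and 26.0 against 73.5, 75.2 and 63.1 (-44.1 ± 3.20). Both were called although they did not reach a mean rank of 75 in either tissue. Tac2, which encodes neurokinin B, ranked 12.1, 11.2 and 13.4 against 53.0, 52.1 and 52.1 (-40.2 ± 0.722). Slc6a7, the brain proline transporter, ranked 48.5, 48.1 and 46.4 against 78.8, 80.1 and 77.5 (-31.1 ± 0.921). Plch1, a phospholipase C, went the other way at 70.3, 73.2 and 68.3 against 41.0, 37.1 and 45.5 (29.4 ± 2.39). Cdh18 and Cdh15, cadherins, differed by 35.9 ± 1.11 and 28.1 ± 1.12 points toward cerebellum.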
